A study of Mus musculus with 18 samples.

Results

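The genes described here are 41 genes of fatty acid oxidation, ketone body metabolism and the targets of PPARA. They were taken by gene symbol from the normalized table, which lists 14451 genes, and all 41 were found on 1 row each and passed the filter that a gene be above the lowest value in at least 1 liver, as did 14449 genes in all. The livers came from 18 wild-type (WT) male mice of 8 to 9 weeks, kept under 12 h of light and 12 h of dark with no further treatment named, and 3 mice were sampled every 4 h from ZT1 to ZT21 (ZT, zeitgeber time, in hours since lights-on; dark from ZT12). Each mouse gave 1 liver and was seen at 1 time point, the libraries sequenced were those of the best RNA of each group, and strain and food intake are not given in the sources used here. Values are estimated reads plus 0.5, scaled by the authors to 1000000 reads of an effective library size, and are called normalized values.

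PPARA is a nuclear receptor that pairs with RXR on DNA and is activated by fatty acids, and in the liver it is known for switching on the use of fat during fasting. Fatty acids are bound and taken up, joined to coenzyme A, handed to carnitine to cross into mitochondria, and shortened there by cycles of dehydrogenation, hydration, a second dehydrogenation and thiolytic cleavage. Peroxisomes shorten very long chains, microsomal CYP4A enzymes oxidize the far end of the chain, thioesterases release free fatty acids from coenzyme A, and surplus acetyl-CoA leaves the liver as ketone bodies. Mice rest and eat little in the light phase and feed mostly in the dark phase.

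Totals of estimated reads on genes ran from 10268168 to 23242842 per liver. The 4 clock genes used to check the time labels were all rhythmic, and by their levels 17 of 18 livers lay closest to the mean of the labelled time, while replicate 3 of ZT5, the deepest library, lay closer to ZT9. Results that change without this liver are given with it left out. The summed value of 7 hepatocyte markers was between 76082 and 105483 in every liver, and it was lower in the 3 livers of ZT9 (76082 to 80151) than in the other 15 (81474 or above). Alb made up most of this sum, with a mean of 52953 at ZT9. The summed value of 6 Kupffer cell and macrophage markers was between 108.3 and 284.5, and that of 6 sinusoidal endothelial markers between 87.9 and 220.7. Of 5 adipocyte markers only Cfd was listed, at 0.0433 to 1.92, so the labelled tissue matched its markers. In both sets of 6 markers, 3 genes were rhythmic, with fitted peaks between ZT6.5 and ZT8.5, and their part in the results below was not tested. In whole liver, fewer cells of a type and less RNA per cell cannot be told apart.

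To ask which of the genes changed over the day, limma was run on log2(value + 1) of each gene with a 24 h cosine curve, which gives a peak-to-trough difference, a peak time and a *P*-value adjusted over all 14449 genes. At an adjusted *P*-value below 0.05, 22 of the 41 genes (53.7%) were rhythmic, beside 35.3% of all genes tested, and 24 without replicate 3 of ZT5, which added Hadh and Decr1. The share over all genes covers every level of expression, and the part of level in the difference was not tested. The median fitted peak-to-trough difference was 0.52 (log2) over the 41 genes and 0.32 over all genes, and 8 of the 41 were rhythmic with a span of at least 2-fold, beside 4.57% of all genes. Fitted peaks of the 22 were spread over the day, with 3 from ZT0 to ZT6, 7 from ZT6 to ZT12, 6 from ZT12 to ZT18 and 6 from ZT18 to ZT24. Over all genes tested, 10% were rhythmic with a peak in the first of these windows, 8.22% in the second, 9.03% in the third and 8.06% in the last. JTK, a rank test that the study also used, was coded anew here and called 13 of the 22 and none of the other 19, and 14.1% of all genes. The study reported more genes by JTK in these livers than the version coded here called. The 9 genes that limma alone called were Acot3, Acot1, Acot4, Fgf21, Ehhadh, Acot12, Decr2, Etfb and Acaa2. Without any assumed curve, 20 genes differed among the 6 times, beside 26.3% of all genes. A 12 h term was called in 0 of the 41 genes by limma, beside 0.872% of all genes. At an unadjusted *P*-value below 0.05 it was found in 3 of the 41 genes, beside 12.6% of all genes.

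**Figure D1:**
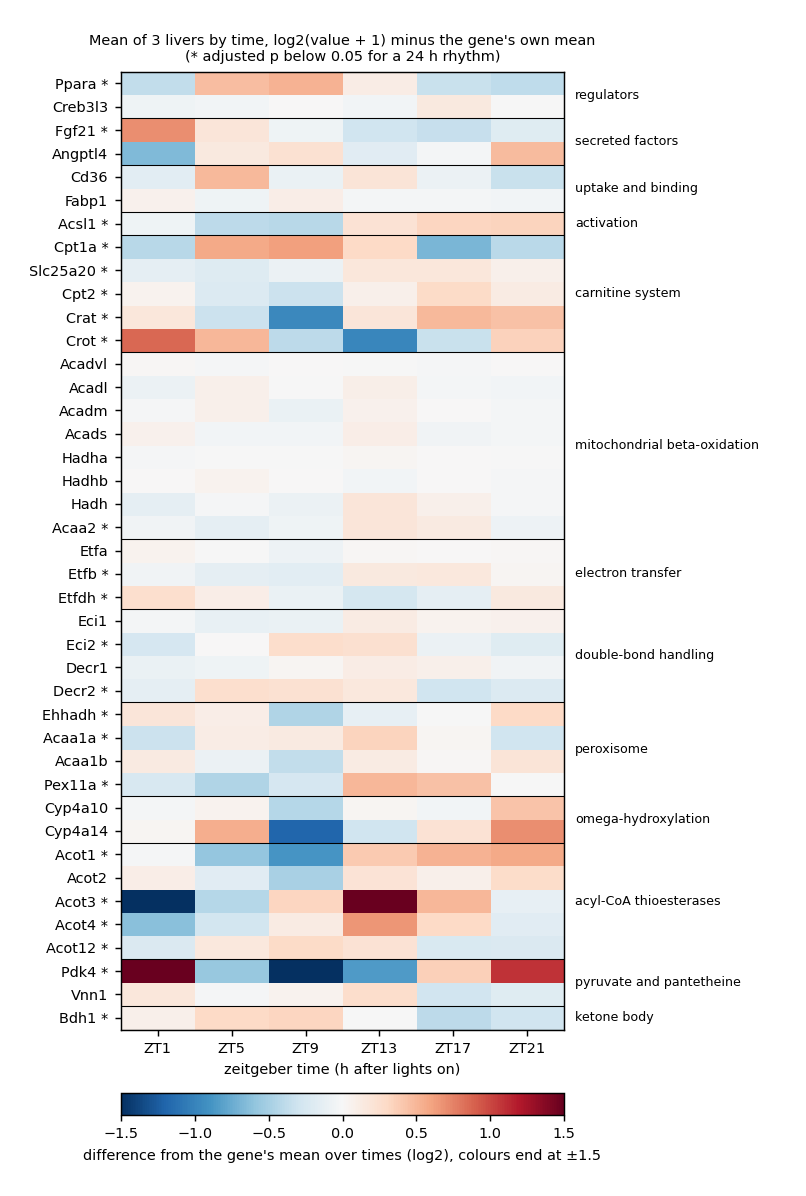
Mean log2(value + 1) of the 3 livers at each zeitgeber time (columns) for the 41 genes (rows, grouped by role), as the difference from the gene's own mean over times; red is higher and blue lower, and a star marks an adjusted P-value below 0.05 for a 24 h rhythm. The rows of the carnitine system change colour over the day while those of mitochondrial beta-oxidation are almost white, with Hadh and Acaa2 faintly higher at ZT13.

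The receptor itself was rhythmic. Ppara (ENSMUSG00000022383, chromosome 15 from 85734983 to 85802819 of GRCm38, the build of all coordinates given) had normalized values of 71.2, 61.6 and 61.8 at ZT1, 115, 114 and 119 at ZT5, 124, 126 and 114 at ZT9, 74.2, 96 and 105 at ZT13, 65, 56.9 and 78.8 at ZT17, and 42, 92.4 and 68 at ZT21. All 6 livers of ZT5 and ZT9 were above all 12 livers of the other times. The summed Kupffer cell and macrophage markers also differed between these times, with 214 to 265 at ZT9 and 108 to 166 at ZT21, and the sinusoidal endothelial markers summed to 153 to 198 and 93.6 to 147. This holds beside Cpt1a and Bdh1 too, and the part of these cells in the result was not tested. The fitted peak of Ppara was at ZT8.3 ± 0.63 h (SE), with a peak-to-trough difference of 1.05 ± 0.17 (SE, log2) and an adjusted *P*-value of 6.04e-04. Creb3l3 (ENSMUSG00000035041, chromosome 10 from 81084324 to 81098874), a membrane-bound transcription factor of the fasting liver, was not called (adjusted *P*-value 0.369), with time point means between 255 at ZT1 and 293 at ZT17.

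The carnitine system carries acyl groups into and between organelles. All 5 of its genes were rhythmic, beside 35.3% of all genes tested, but not at one time of day. Cpt1a (ENSMUSG00000024900, chromosome 19 from 3322334 to 3385733), which makes acylcarnitine at the outer mitochondrial membrane and is the regulated step of entry, had normalized values of 221, 193 and 206 at ZT1, 509, 362 and 373 at ZT5, 410.5, 447 and 411 at ZT9, 371, 344 and 308 at ZT13, 173, 171 and 168 at ZT17, and 197, 249 and 185 at ZT21. The 6 livers of ZT5 and ZT9 were above all livers of ZT1, ZT17 and ZT21 and overlapped with ZT13. The fitted peak was at ZT8.1 ± 0.43 h (SE), a peak-to-trough difference of 1.37 ± 0.15 (SE, log2) or 2.58-fold (adjusted *P*-value 1.37e-05), and thus within its error of the peak of Ppara.

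Cpt2 (ENSMUSG00000028607, chromosome 4 from 107903981 to 107923610), the partner enzyme of the inner membrane that returns the acyl group to coenzyme A, was lowest at ZT9 with 105 ± 6.68 (SD, 3 livers) and highest at ZT17 with 161 ± 5.16 (SD, 3 livers). Its fitted peak was at ZT18.7 ± 0.59 h (SE), with a peak-to-trough difference of 0.55 ± 0.085 (SE, log2; adjusted *P*-value 3.56e-04). At ZT9 compared with ZT21, Cpt1a was higher by 1.02 ± 0.13 (SE, log2; adjusted *P*-value 1.37e-04), while the ZT9 minus ZT21 difference of Cpt2 was -0.45 ± 0.092 (adjusted *P*-value 0.00541). The 2 enzymes on either side of the inner membrane transport thus had opposite directions in the same contrast. Slc25a20, the carrier between them, had a smaller rhythm of 0.40 ± 0.077 (SE, log2) with a peak at ZT16.2 (adjusted *P*-value 0.00230).

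Crat and Crot move short and medium chains from coenzyme A to carnitine, Crat in mitochondria and peroxisomes and Crot in peroxisomes. Crat (ENSMUSG00000026853, chromosome 2 from 30400471 to 30415813) had normalized values of 35.8, 42.7 and 55.2 at ZT1, 39.7, 25.4 and 29.3 at ZT5, 23.6, 20.8 and 14.8 at ZT9, 43.1, 45.3 and 43.7 at ZT13, 57.4, 48.6 and 59.5 at ZT17, and 43.9, 66.6 and 50.9 at ZT21. The 3 livers of ZT9 were the lowest of the 18. Its fit gave a peak-to-trough difference of 1.29 ± 0.21 (SE, log2), with the peak at ZT19.6 ± 0.61 h (SE) and an adjusted *P*-value of 4.40e-04.

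Crot (ENSMUSG00000003623, chromosome 5 from 8966033 to 8997324) had normalized values of 896, 963 and 829.6 at ZT1, 699.6, 690.5 and 709.9 at ZT5, 386, 382 and 361 at ZT9, 192, 341 and 240.3 at ZT13, 389, 339.7 and 453 at ZT17, and 609, 692 and 581 at ZT21. The livers of ZT1 were the 3 highest of the 18, and those of ZT13, the lowest time on average, overlapped only with ZT17. The difference of 1.75 ± 0.13 (SE, log2), or 3.36-fold, had its peak at ZT1.1 ± 0.28 h (SE), and the adjusted *P*-value was 2.03e-07. Replicates were close relative to this change, with an R-squared of 0.92 for the 24 h cosine.

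In the spiral of mitochondrial beta-oxidation, 1 of 8 genes was rhythmic, beside 35.3% of all genes tested. Acadvl, Acadl, Acadm and Acads encode the acyl-CoA dehydrogenases for very long, long, medium and short chains, Hadha and Hadhb the 2 subunits of the trifunctional protein, Hadh the short-chain hydroxyacyl-CoA dehydrogenase and Acaa2 the thiolase. In the 7 genes that were not called, the fitted peak-to-trough difference lay between 0.011 and 0.24 (log2), with SEs of 0.062 to 0.093 and adjusted *P*-values of 0.117 to 0.994. For Acadvl, the highest and lowest of the 6 time point means were 372 and 362, a ratio of 1.03. The ratio was 1.04 for Hadha, 1.07 for Hadhb, 1.11 for Acads, 1.13 for Acadm, 1.13 for Acadl and 1.25 for Hadh. Acaa2 was called, with a mean of 897 ± 69.8 (SD, 3 livers) at ZT13 against 717 ± 50.9 (SD, 3 livers) at ZT5 (peak-to-trough difference 0.30 ± 0.077, SE, log2; adjusted *P*-value 0.0174). Hadh, with the largest fitted difference of the 7, was called when replicate 3 of ZT5 was left out (adjusted *P*-value 0.0271). Of the 50-base words in the transcripts of Hadhb, 19.7% also occur in other genes, mostly Gm13910, so its reads could be divided.

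Of the 3 genes of the flavoproteins that take the electrons from these dehydrogenases, 2 were rhythmic, beside 35.3% of all genes tested. Etfdh, which passes the electrons to ubiquinone, had its highest mean at ZT1, 270.1 ± 4.07 (SD, 3 livers), and its lowest at ZT13, 189 ± 4.09 (SD, 3 livers), and the fitted peak was at ZT1.0 ± 0.45 h (SE) with an R-squared of 0.931 (adjusted *P*-value 2.35e-05). The change was 0.50 ± 0.06 (SE, log2), small in size. The 3 livers of ZT13 were 184, 191 and 191 and those of ZT1 271, 266 and 274. These times were picked as the lowest and highest of the gene, so their separation adds no support. Etfb, a subunit of the electron transfer flavoprotein, peaked at ZT17.0 with a difference of 0.32 ± 0.075 (SE, log2; adjusted *P*-value 0.00897), and Etfa, the other subunit, was not called (0.074 ± 0.062, adjusted *P*-value 0.601). In Etfb, 44.8% of 50-base words are shared, nearly all with the annotated gene Gm45233.

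Of the 4 genes that handle double bonds in unsaturated chains, Eci2 and Decr2 were rhythmic, beside 35.3% of all genes tested. Eci2 encodes an enoyl-CoA isomerase found in peroxisomes and mitochondria, and Decr2 the peroxisomal dienoyl-CoA reductase. Eci2 averaged 172 ± 12.4 (SD, 3 livers) at ZT9, its highest time, against 119.7 ± 6.36 (SD, 3 livers) at ZT1, with its fitted peak at ZT10.7 ± 0.59 h (SE, adjusted *P*-value 3.17e-04). The highest mean of Decr2 was 198 ± 9.11 (SD, 3 livers), at ZT5, and its lowest 135 ± 7.85 (SD, 3 livers), at ZT17, with its peak at ZT8.0 ± 0.62 h (SE, adjusted *P*-value 5.15e-04). The mitochondrial Eci1 and Decr1 were not called, with fitted differences of 0.22 ± 0.09 and 0.22 ± 0.075 (SE, log2) and adjusted *P*-values of 0.135 and 0.0690. Decr1 passed the threshold without replicate 3 of ZT5 (adjusted *P*-value 0.0209) and in limma with an intensity trend (adjusted *P*-value 0.0337).

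In peroxisomes, 3 of 4 genes were rhythmic, beside 35.3% of all genes tested, and each of the 3 had its own time. Pex11a (ENSMUSG00000030545, chromosome 7 from 79735957 to 79743131), a membrane protein of peroxisome division, had normalized values of 65.4, 63.1 and 75.7 at ZT1, 55.4, 57.8 and 61.7 at ZT5, 93.1, 59.3 and 55.6 at ZT9, 104, 128 and 112 at ZT13, 111, 106 and 109 at ZT17, and 78.7, 75.8 and 86.4 at ZT21. All 6 livers of ZT13 and ZT17 were above the other 12. The peak was at ZT15.9 ± 0.53 h (SE) and the difference 0.97 ± 0.13 (SE, log2; adjusted *P*-value 1.16e-04).

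Acaa1a and Acaa1b are 2 copies of the peroxisomal thiolase, on chromosome 9, given here by level and by time. Acaa1a averaged 193 ± 10.6 (SD, 3 livers) at ZT13, its highest time, against 122 ± 13.5 (SD, 3 livers) at ZT1 (peak at ZT11.1 ± 0.56 h, SE, adjusted *P*-value 2.10e-04). Acaa1b was not called, with 717 ± 202 (SD, 3 livers) at ZT9 and 1041 ± 64 (SD, 3 livers) at ZT21 (adjusted *P*-value 0.106). Their transcripts share 50-base words (30.5% of those of Acaa1b and 12.4% of those of Acaa1a), so the division of reads between the copies is uncertain. Per kilobase of merged exons, the mean normalized value was 470.2 for Acaa1b (299.9 to 647 over the 18 livers) and 35 for Acaa1a (25.4 to 46.4). Ehhadh, the bifunctional enzyme of the peroxisomal pathway, was lowest at ZT9 with 249.5 ± 53.8 (SD, 3 livers) and highest at ZT21 with 418 ± 43.7 (SD, 3 livers), with its fitted peak at ZT22.5 ± 0.88 h (SE, adjusted *P*-value 0.00818).

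**Figure D2:**
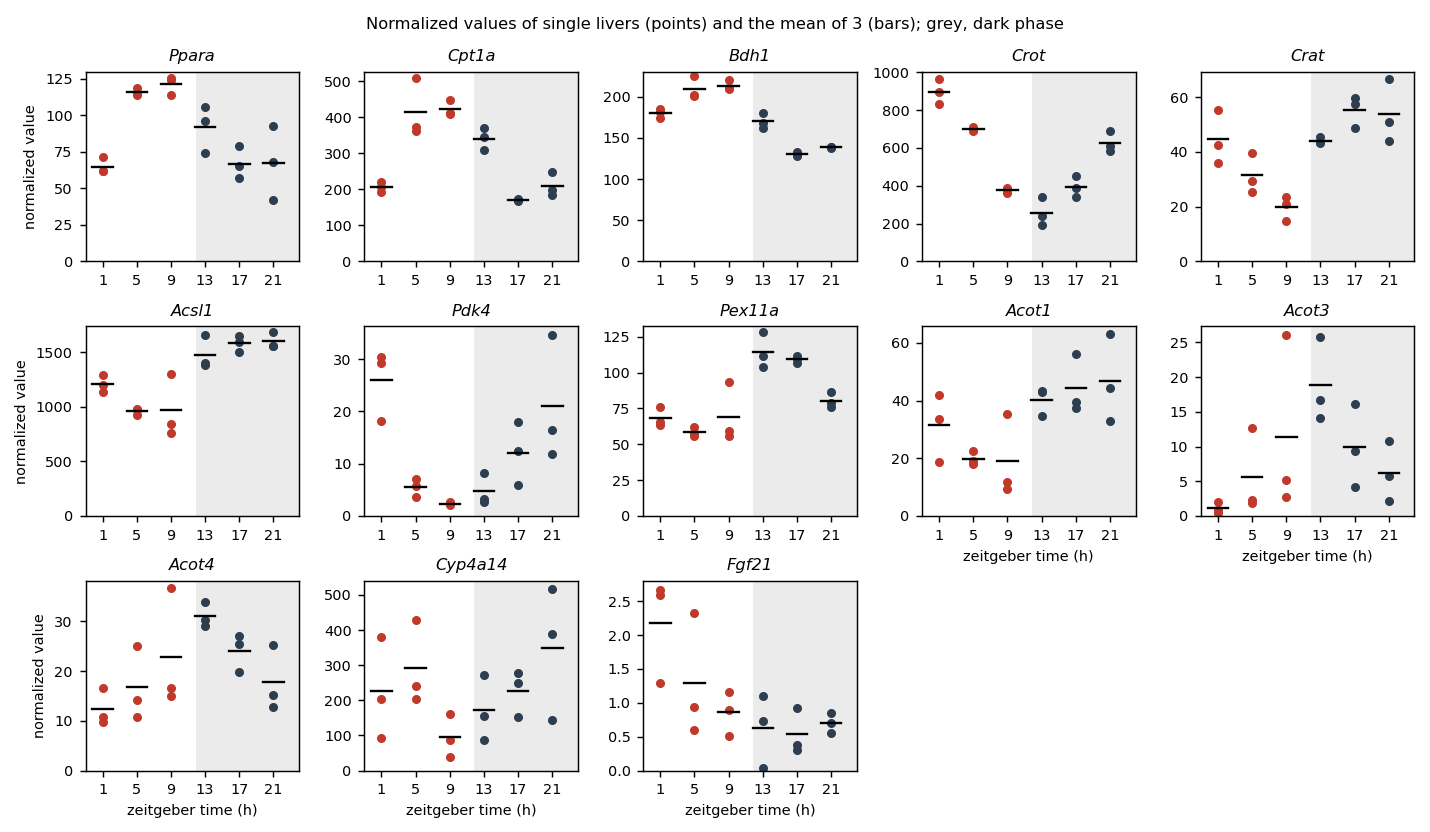
Normalized value (y axis, linear, from 0) of each of the 18 livers by zeitgeber time (x axis, hours; grey, dark phase) for 13 genes, with points for single livers and a bar for the mean of 3. Ppara, Cpt1a and Bdh1 are high at ZT5 and ZT9, Crat and Pdk4 are lowest at ZT9, and single livers stand high in Acot3, Acot4 and Cyp4a14.

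Of the 3 genes of uptake, binding and activation, 1 was rhythmic, beside 35.3% of all genes tested. Acsl1 (ENSMUSG00000018796, chromosome 8 from 46471037 to 46536051), which joins long-chain fatty acids to coenzyme A, had normalized values of 1138, 1202 and 1289 at ZT1, 985, 925 and 969 at ZT5, 1303, 763 and 847 at ZT9, 1656, 1399 and 1383 at ZT13, 1646, 1599 and 1502 at ZT17, and 1558, 1691 and 1555 at ZT21. All 9 livers of the dark phase were above all 9 of the light phase, the nearest being replicate 1 of ZT9. The fitted peak was at ZT18.2 ± 0.54 h (SE) and the difference 0.87 ± 0.12 (SE, log2; adjusted *P*-value 1.45e-04). Fabp1, the fatty acid binding protein of the liver cytosol, had the highest mean normalized value per kilobase of the 41 genes, 5318 (4280.1 to 6245 over the 18 livers), and no called rhythm (peak-to-trough difference 0.059 ± 0.11, SE, log2; adjusted *P*-value 0.900). Cd36, a membrane protein of fatty acid uptake that macrophages and endothelial cells also carry, was not called either (adjusted *P*-value 0.417), and its livers at ZT17 ran from 17.4 to 43.5.

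The acyl-CoA thioesterases of the Acot1 to Acot4 cluster lie within chromosome 12 from 83987861 to 84060402. Acot1 acts in the cytosol, Acot2 in mitochondria, and Acot3 and Acot4 in peroxisomes. Acot3 had normalized values of 0.462, 0.892 and 2.0 at ZT1, 1.93, 2.32 and 12.6 at ZT5, 26, 5.25 and 2.75 at ZT9, 16.7, 25.8 and 14.1 at ZT13, 16.2, 4.18 and 9.3 at ZT17, and 2.13, 10.8 and 5.81 at ZT21. The ZT13 livers were all above those of ZT1, but the highest of the 18 was replicate 1 of ZT9, and the other livers of ZT9 were low. Acot4 had normalized values of 9.83, 10.8 and 16.6 at ZT1, 14.2, 10.8 and 25.1 at ZT5, 36.7, 16.6 and 15 at ZT9, 30.3, 33.8 and 29 at ZT13, 27, 19.7 and 25.4 at ZT17, and 12.7, 25.2 and 15.2 at ZT21. Again replicate 1 of ZT9 was the highest liver, and ZT13 did not overlap with ZT1. The fitted peaks were at ZT13.4 ± 0.83 h and ZT13.5 ± 0.84 h (SE), with differences of 2.64 ± 0.57 and 1.15 ± 0.25 (SE, log2) and adjusted *P*-values of 0.00547 and 0.00590.

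Acot1, next in the cluster, had normalized values of 18.8, 33.6 and 42 at ZT1, 19.2, 17.9 and 22.6 at ZT5, 35.4, 11.9 and 9.28 at ZT9, 43.2, 43.1 and 34.5 at ZT13, 56.1, 37.5 and 39.6 at ZT17, and 32.8, 63 and 44.4 at ZT21. The dark-phase livers were all above those of ZT5, and ZT9 held the 2 lowest livers of the 18 beside 1, replicate 1, within the range of the dark phase. The fitted peak was later than for Acot3 and Acot4, at ZT18.6 ± 0.81 h (SE; difference 1.48 ± 0.31, SE, log2; adjusted *P*-value 0.00438). Acot2 was at 1.83 to 6.22, with a fitted difference of 0.60 ± 0.21 (SE, log2; adjusted *P*-value 0.0845), and was called without replicate 1 of ZT5 (adjusted *P*-value 0.0306) or replicate 1 of ZT21 (adjusted *P*-value 0.0451). Of the 50-base words, 27.7% in Acot2, 19.2% in Acot1, 19.1% in Acot3 and 4.53% in Acot4 also occur in other genes, with the largest overlap with Acot1 for Acot2, Acot2 for Acot1, the annotated gene Gm49366 for Acot3 and Acot6 for Acot4, so that reads of 50 bases could be divided. Acot12, a cytosolic acetyl-CoA thioesterase outside the cluster, on chromosome 13, averaged 127 ± 15.5 (SD, 3 livers) at ZT9, its highest time, and 88.8 ± 2.67 (SD, 3 livers) at ZT17, its lowest (peak at ZT9.2 ± 0.56 h, SE, adjusted *P*-value 2.14e-04).

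The CYP4A enzymes Cyp4a10 and Cyp4a14, which hydroxylate the far end of fatty acids and are textbook targets of PPARA, were not called. Cyp4a14 (ENSMUSG00000028715, chromosome 4 from 115486200 to 115496142) had normalized values of 92.8, 205 and 381 at ZT1, 204, 242 and 429 at ZT5, 159.6, 88.1 and 38.9 at ZT9, 86.1, 272 and 155 at ZT13, 278, 152 and 249 at ZT17, and 143, 516 and 388 at ZT21. Every time point but ZT17 held livers that differed more than 2-fold from each other, and the highest and lowest time points overlapped. Its fitted difference of 1.32 ± 0.53 (SE, log2) was the sixth in size of the 41, with an adjusted *P*-value of 0.136, and it passed the threshold without replicate 1 of ZT1 (adjusted *P*-value 0.0461). For Cyp4a10 the difference was 0.52 ± 0.31 (SE, log2; adjusted *P*-value 0.385), and 29.8% of its 50-base words are shared with other genes, mostly Cyp4a32.

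Pdk4 (ENSMUSG00000019577, chromosome 6 from 5483351 to 5496309), the kinase that shuts pyruvate dehydrogenase when fat is burned, had the largest fitted peak-to-trough difference of the 41 genes on the log2(value + 1) scale, while by time point means its highest was 11.1 times its lowest, against 16.9 times for Acot3. Its normalized values were 18.1, 29.3 and 30.4 at ZT1, 7.03, 5.74 and 3.69 at ZT5, 2.43, 2.01 and 2.58 at ZT9, 2.68, 3.21 and 8.25 at ZT13, 12.5, 5.87 and 18 at ZT17, and 11.9, 34.6 and 16.4 at ZT21. The 3 livers of ZT9 were the lowest of the 18, and all livers of ZT1 were above all those of ZT5, ZT9 and ZT13. The difference was 2.92 ± 0.35 (SE, log2), or 7.59-fold, with the peak at ZT22.1 ± 0.46 h (SE) and an adjusted *P*-value of 2.94e-05. Vnn1, a pantetheinase and another known target of PPARA, was not called (0.30 ± 0.22, SE, log2; adjusted *P*-value 0.514).

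Bdh1 (ENSMUSG00000046598, chromosome 16 from 31422280 to 31458901), which interconverts acetoacetate and beta-hydroxybutyrate, the main ketone bodies, had normalized values of 181, 185 and 174 at ZT1, 201, 203 and 225 at ZT5, 209, 221 and 211 at ZT9, 180.1, 162 and 168 at ZT13, 133, 129 and 128 at ZT17, and 139, 139 and 137 at ZT21. All 6 livers of ZT5 and ZT9 were above all others, and the 3 of ZT17 were the lowest. Its fitted peak was at ZT6.6 ± 0.32 h (SE), the difference 0.76 ± 0.063 (SE, log2), the adjusted *P*-value 6.54e-07 and the R-squared 0.956, the highest of the 41 genes.

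Of the 2 secreted factors, Fgf21 was rhythmic, beside 35.3% of all genes tested. Its level per kilobase was the lowest of the 41 genes (1.08). Fgf21 (ENSMUSG00000030827, chromosome 7 from 45613886 to 45615490), a fasting hormone of the liver, had normalized values of 2.66, 2.59 and 1.29 at ZT1, 0.932, 2.32 and 0.604 at ZT5, 0.894, 1.16 and 0.515 at ZT9, 1.11, 0.0342 and 0.738 at ZT13, 0.377, 0.303 and 0.916 at ZT17, and 0.848, 0.704 and 0.554 at ZT21. Replicates 1 and 2 of ZT1 were the 2 highest livers, and replicate 2 of ZT13 was at the lowest value of its library, which stands for 0 reads. The values rest on 0 to 38 estimated reads per liver. The fit gave a peak at ZT2.7 ± 1.05 h (SE), with a difference of 0.88 ± 0.24 (SE, log2) and an adjusted *P*-value of 0.0240, and the call was lost without replicate 1 or 2 of ZT1, replicate 2 of ZT5 or replicate 2 of ZT13 (adjusted *P*-values 0.0525 to 0.0583). Angptl4, an inhibitor of lipoprotein lipase, was not called (adjusted *P*-value 0.886), with time point means between 28 at ZT1 and 61.3 at ZT21.

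**Figure D3:**
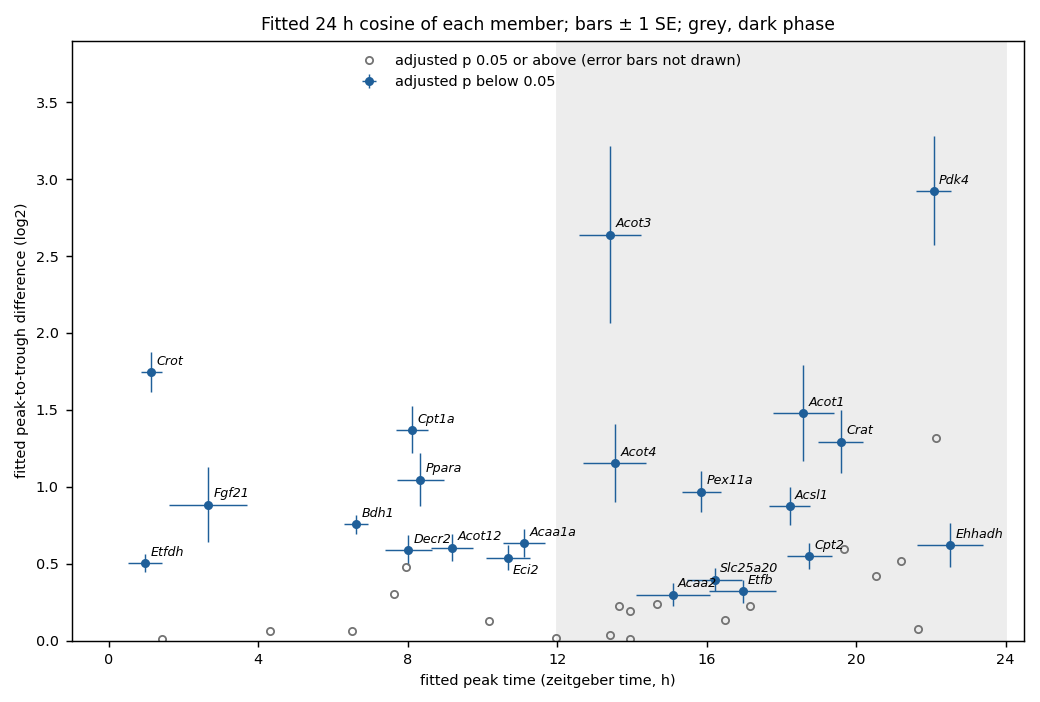
Fitted peak time (x axis, zeitgeber time in hours; grey, dark phase) and fitted peak-to-trough difference (y axis, log2) of the 41 genes, with filled points and bars of ± 1 SE for the 22 rhythmic genes and open circles for the other 19. The rhythmic genes lie all around the day, from Etfdh and Crot near ZT1 over Bdh1, Cpt1a and Ppara at ZT6.6 to ZT8.3 to Pdk4 at ZT22.1 and Ehhadh at ZT22.5.

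Sequence just before the start of the genes was searched for letters that PPARA and the factors of the circadian clock are known to bind. RefSeq promoter windows of GRCm38.p6 matched 34 of the 41 members, with 38 start sites, and the 250 bases before each start were read on both strands. Those without an entry were Angptl4, Crat, Acaa2, Decr1, Cyp4a10, Cyp4a14 and Vnn1. The direct repeat of the kind that PPARA and RXR bind, searched as AGGNCA followed on the same strand, after 1 base of any kind, by AGGNCA again, stood in 1 of the 34 members, Fabp1, and in 0.338% of all 32851 windows. The E-box CACGTG, bound by CLOCK and BMAL1, stood in 2 members, Acot4 and Fgf21, and in 6.02% of all windows. The D-box TTANGTAA stood in 0 members and 2.06% of windows, and the REV-ERB and ROR element, searched as AGGTCA directly after ANNT, in 0 members and 0.609% of windows. These elements can overlap, since the REV-ERB element ends in letters that the repeated AGGNCA also matches. The 3 matches are printed 5′ to 3′ on the strand of the gene, with the matched letters in capitals and up to 15 bases on either side.
Fabp1 (chr6:71199797-71199839, plus strand; the match begins 67 bases before the start and is the repeat read on the other strand): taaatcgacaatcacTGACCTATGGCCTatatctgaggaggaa
Acot4 (chr12:84038298-84038333, plus strand; 66 bases before the start): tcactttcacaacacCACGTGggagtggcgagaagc
Fgf21 (chr7:45615520-45615555, minus strand; 50 bases before the start): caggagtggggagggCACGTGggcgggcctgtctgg
Acot4 and Fgf21 were rhythmic with fitted peaks at ZT13.5 and ZT2.7, and Fabp1 was not rhythmic. A match of letters is not a binding site, and the windows cover only the bases next to the start.

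The 2 contrasts of times 12 h apart use the same livers as the rhythm fit and are not independent of it. Slc25a20, Etfb and Acaa2, rhythmic in that fit, were called in neither contrast. At ZT9 compared with ZT21, the late light phase against the late dark phase, 7 genes were higher, namely Ppara, Cpt1a, Bdh1, Acaa1a, Acot12, Decr2 and Eci2, beside 5.07% of all genes, and 8 were lower, namely Pdk4, Crot, Acot1, Crat, Acsl1, Ehhadh, Cpt2 and Etfdh, beside 5.63% of all genes. The summed hepatocyte markers were 76082 to 80151 at ZT9 and 84542 to 97627 at ZT21, but Alb made up most of this sum. Taken singly, the ZT9 minus ZT21 difference (log2) was -0.37 for Ttr, -0.32 for Alb, -0.24 for Cps1 and -0.0012 for Serpina1a. It was 0.22 for Apoa1, 0.13 for Hnf4a and 0.12 for Apob, and among these markers only Ttr was called (adjusted *P*-value 0.0176). The part of the hepatocyte markers in the genes that were lower at ZT9 was not tested. Of the 41 genes, the number higher at ZT9 fell to 4 without replicate 3 of ZT21. On the lower side, the ZT9 minus ZT21 difference was -2.59 ± 0.42 for Pdk4 (SE, log2; adjusted *P*-value 8.59e-04), -1.45 ± 0.38 for Acot1 (adjusted *P*-value 0.0236) and -1.41 ± 0.20 for Crat (adjusted *P*-value 3.25e-04). At ZT13 compared with ZT1, 7 genes were higher, namely Acot3, Acot4, Pex11a, Cpt1a, Acaa1a, Eci2 and Acot12, beside 6.8% of all genes. Pdk4, Crot, Fgf21 and Etfdh were lower at ZT13, beside 7.42% of all genes, with a ZT13 minus ZT1 difference of -1.83 ± 0.16 for Crot (SE, log2; adjusted *P*-value 3.49e-06). Over the 41 genes the median difference was -0.017 (log2) for ZT9 minus ZT21 and 0.099 for ZT13 minus ZT1, and over all genes it was 0.00027 and 0.00041. The genes thus moved in both directions in each contrast.

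Livers of the same time point also differed from each other in these genes. In replicate 1 of ZT9, 39 of the 41 genes were above the mean of that time point, beside 50.4% of all genes. This liver was the highest of the 3 in 33 of the 41 genes, beside 34.2% of all genes. In replicate 3 of ZT9, 5 of the 41 were above the mean, beside 50.2% of all genes. Counts of at least 30 also occurred in replicate 3 of ZT1 (34 genes), replicate 3 of ZT5 (30), replicate 2 of ZT13 (34) and replicate 2 of ZT21 (32), beside 51.1% to 51.7% of all genes in these livers. In replicate 1 of ZT1, 8 genes were above the mean, beside 50% of all genes. The 3 livers of ZT17 had 18 to 23, beside 48.9% to 50.8% of all genes. The median deviation of the 41 genes was 0.11 (log2) in replicate 1 of ZT9 and -0.086 in replicate 1 of ZT1, and over all genes it was between -0.0064 and 0.0064 in every liver.

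**Figure D4:**
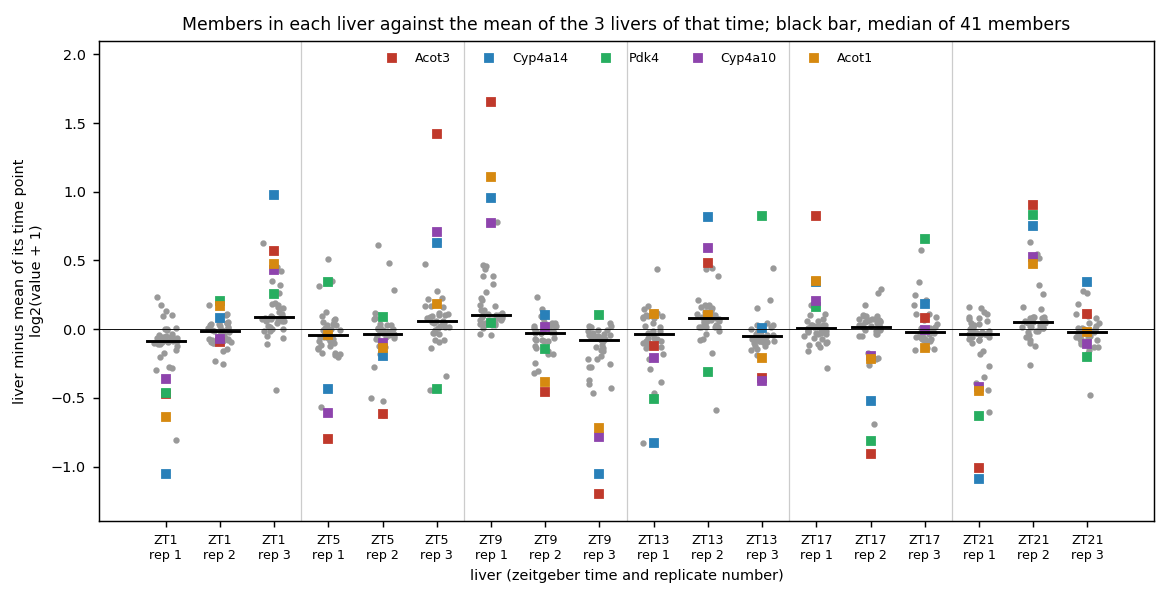
Difference of each liver from the mean of the 3 livers of its time point (y axis, log2(value + 1)) for the 41 genes in each of the 18 livers (x axis); coloured squares are the 5 genes with the largest spread within times, grey points the other 36, and black bars the median of the 41. In replicate 1 of ZT9 nearly all points lie above 0, and in replicate 3 of ZT9 most lie below.

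The genes with the widest spread between livers of the same time were the thioesterases Acot3 and Acot1, the CYP4A enzymes Cyp4a14 and Cyp4a10, and Pdk4. The SD within time points (log2) was 0.99 for Acot3, 0.84 for Cyp4a14, 0.57 for Pdk4, 0.54 for Cyp4a10 and 0.52 for Acot1, beside a median of 0.19 over all genes. Acot12, also a thioesterase, had 0.12. Of all genes tested, 99.7% had a smaller SD than Acot3, 99.4% than Cyp4a14 and 98.3% than Cyp4a10. Among the 1267 genes with a mean value of at least 100, 99.3% had a smaller SD than Cyp4a14 and 98.3% than Cyp4a10. Acot3, Pdk4 and Acot1, with mean values of 8.84, 11.9 and 33.6, were below that level and were not ranked there. At the other end were Etfdh with 0.055, Bdh1 with 0.056, Etfa with 0.06 and Acadvl with 0.065, and in this group of genes 2.6% had a smaller SD than Etfdh and 2.84% than Bdh1.

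At ZT9, Cyp4a14 was 159.6 in replicate 1, 88.1 in replicate 2 and 38.9 in replicate 3, and Cyp4a10 followed the same order with 324, 192 and 109.8. Acot1 and Acot3 were in this order too. Ppara did not share it, with 124, 126 and 114. At ZT1, replicates 1, 2 and 3 had Cyp4a14 values of 92.8, 205 and 381, Acot1 values of 18.8, 33.6 and 42 and summed Kupffer cell and macrophage markers of 254, 172 and 122. At ZT9 these markers summed to 214, 265 and 248, with the lowest sum in replicate 1, and the totals of estimated reads were 11641015, 10540312 and 10268168. At ZT1 the totals were 14523185, 11265318 and 10747428, with the highest in replicate 1, where Cyp4a14 was lowest. The part of depth and of the other cells in the difference between livers was not tested.

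The other genes of the pathway were counted in 7 lists that hold none of the 41. Of 79 genes listed, 76 were tested and 34 (44.7%) were rhythmic, beside 35.3% of all genes tested. The count was 2 of 6 (33.3%) among the partners in ketone body metabolism and 5 of 15 (33.3%) of the other peroxisomal genes. It was 4 of 11 (36.4%) in fatty acid import and the control of CPT1. Of the other acyl-CoA dehydrogenases and propionate genes it was 3 of 12 (25%), and in other omega-oxidation 2 of 8 (25%). It was higher for the partners of PPARA, 9 of 14 (64.3%), and the other known PPARA targets, 9 of 10 (90%). JTK called 3 genes in each of these lists, beside 14.1% of all genes. The lists were chosen with earlier results of these data known. Slc16a1, a carrier of ketone bodies and lactate, peaked at ZT20.3 with a difference of 1.03 ± 0.13 (SE, log2; adjusted *P*-value 3.98e-05), and Acat1, a mitochondrial thiolase, had 0.21 ± 0.066 (adjusted *P*-value 0.0456). Hacl1, a lyase of peroxisomal alpha-oxidation, was lower by 1.76 (log2) at ZT9 than at ZT21, with a peak at ZT21.3 (adjusted *P*-value 7.31e-07), and Amacr, a racemase for branched chains, peaked at ZT5.3 (adjusted *P*-value 2.74e-04).

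Among the partners of PPARA, the related receptor Ppard had a peak-to-trough difference of 2.47 ± 0.29 (SE, log2) and a peak at ZT21.6 (adjusted *P*-value 2.45e-05). Rxra, the DNA-binding partner, had 0.50 ± 0.075 with a peak at ZT9.4 (adjusted *P*-value 2.56e-04). The peak of Ppara lay at ZT8.3, so that Rxra was nearer to it in time than Ppard. Acaca, an acetyl-CoA carboxylase that makes malonyl-CoA, the inhibitor of CPT1, peaked at ZT11.6 (adjusted *P*-value 1.71e-04). Acacb, another acetyl-CoA carboxylase, was not called rhythmic (adjusted *P*-value 0.0738), with its fitted peak at ZT21.5. The ZT9 minus ZT21 difference (log2) was 0.52 for Acaca (adjusted *P*-value 0.0249) and -1.07 for Acacb (adjusted *P*-value 0.0305). Acsl5, an acyl-CoA synthetase, peaked at ZT0.6 (adjusted *P*-value 1.38e-04). Acad8, an acyl-CoA dehydrogenase of valine breakdown, peaked at ZT1.0 (adjusted *P*-value 3.67e-04) and Mcee, an epimerase of the propionate pathway, at ZT17.8 (adjusted *P*-value 0.0133).

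Cyp4a12a, a further CYP4A enzyme, peaked at ZT21.1 with a difference of 0.76 ± 0.18 (SE, log2; adjusted *P*-value 0.0107), and Cyp4f14 at ZT21.4 (adjusted *P*-value 0.0306). Of the other known targets, Mgll, a monoglyceride lipase, peaked at ZT14.0 with 1.11 ± 0.11 (SE, log2; adjusted *P*-value 2.67e-06), and Plin2, a coat protein of lipid droplets, at ZT23.8 with 0.84 ± 0.14 (adjusted *P*-value 8.23e-04).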

How the data were processed

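RNA of 18 whole livers, 3 at each of 6 zeitgeber times, was sequenced as 50-nt single reads. The authors used Cutadapt for the adapters, RSEM (version 1.2.20 in the submitters' processing notes) on transcripts of GRCm38 (Ensembl gene-build 84) for estimated counts, and limma for normalization. The deposited signal holds these counts with 0.5 added, per 1000000 reads of the effective library. A library's lowest value marks 0 reads, and estimated reads were worked back from it. Time labels were taken from GEO, and replicate numbers name livers without pairing them.

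limma 3.58.1 (R 4.3.3) fitted log2(value + 1) of 14449 genes with a cosine and sine of 24 h (moderated F test), with those of 12 h added, and with 6 time point means, from which the F test over times and the contrasts ZT9 minus ZT21 and ZT13 minus ZT1 were taken. *P*-values were adjusted by Benjamini–Hochberg over all genes and called below 0.05. Peak-to-trough differences are on the log2(value + 1) scale, which understates changes of low genes. CircaN was not run, because it combines the *P*-value of the amplitude with a test that the period differs from 0. JTK was coded anew, with periods of 20, 24 and 28 h and the smallest *P*-value of each gene multiplied by 18 cosine orders. The linear fit was tested on simulated data. Coordinates are from GENCODE M21 (GRCm38) and promoter sequences from RefSeq (GRCm38.p6). Sharing of 50-base words was counted over GENCODE M21 transcripts on the same strand.

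The 41 genes, the lists and the tests were chosen with earlier results of these data known. By rule, values of each liver are given for Ppara, Cpt1a, Bdh1, Fgf21 and the 12 members of largest peak-to-trough difference. From each other list, 2 genes of smallest *P*-value are named, and Acacb was added beside Acaca. Alternatives were the pseudocount, a filter at a mean value of 1, 2 scalings, an intensity trend, linear values, JTK and leaving out each of the 18 livers.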

Additional observations from a re-analysis of the deposited data

How the results depend on the processing

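The number of rhythmic genes among the 41 was 22 in the limma fit, 22 or 23 under pseudocounts of 0.1 and 0.5, the filter, both scalings, the intensity trend and linear values, and 21 to 24 when each liver was left out. JTK as coded here called 13 of the 41, losing 9 of the 22, and 2039 genes in all, against 5103 in limma, and 2024 of its genes were shared. Over the 24 alternatives other than JTK and linear values, of 984 values of single members, 974 stayed on their side of the threshold, 4 lost it, 6 gained it, and 0 of the called ones had their peak moved by over 6 h. Leaving out 1 liver gave 4573 to 5088 rhythmic genes in all, 16 to 21 members and 3245 to 3598 genes that differ among the 6 times, and 30 to 36 rhythmic genes in the other lists. By the same fits, 4 to 7 members were higher and 6 to 10 lower at ZT9 than at ZT21 (10 to 17 in all), and 5 to 8 were higher and 3 or 4 lower at ZT13 than at ZT1 (8 to 12 in all). The value of 4 for members higher at ZT9 came without replicate 3 of ZT21, and the reason was not tested. No member had a 12 h term in any fit. No paired analysis was possible because each mouse was sampled once and the replicate numbers are only names. Fgf21 rests on 0 to 38 estimated reads per liver, and the part of depth in its call was not tested.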
